A study of Mus musculus with 11 samples.

Results

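The S100 genes encode small calcium-binding proteins, and 10 of them (S100a1, S100a4, S100a6, S100a8, S100a9, S100a10, S100a11, S100a13, S100a16 and S100b) were followed here across the cell types of the mouse cerebral cortex. The members were chosen by name, from the genes of the family with many reads, at a time when earlier results on these data were known. They are 10 of the 26921 genes counted in the 11 libraries. The member with the fewest unique molecular identifiers (UMIs, each standing for 1 captured transcript) in cells of a named type was S100b with 6008. S100g, which was not chosen, had 184 in these cells, and the other 6 unchosen family genes had 3 to 158.

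Every library was made from cortex of C57BL/6 mice that were perfused before dissection, digested with papain and Liberase, depleted of myelin with bovine serum albumin and run on the 10x Chromium 3′ v2 system. The groups were Juvenile (postnatal day 10, untreated, 4 libraries), Adult (7 to 11 weeks, untreated, 3 libraries), Aged (18 months, untreated, 2 libraries) and EAE (7 to 11 weeks, 2 libraries). EAE is experimental autoimmune encephalomyelitis, a mouse model of multiple sclerosis. It was induced with the myelin peptide MOG35–55 in complete Freund's adjuvant plus pertussis toxin, and the mice were taken at the peak of disease. Tissue was pooled from 6 mice in each Juvenile and Adult library and from 3 mice in each Aged and EAE library. No mice given adjuvant and toxin alone were analysed here, so the disease and its induction cannot be told apart. The comparisons ask how each cell type of the vessel wall and its surroundings differs from the adult state in young, old and inflamed cortex.

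As background, an S100 protein carries a pair of EF-hand loops and usually works as a dimer that opens a binding face when calcium is bound. S100A8 and S100A9 form calprotectin, an abundant cytoplasmic protein of neutrophils that sequesters metals and acts as an alarm signal when it is released. S100A10 binds annexin A2 at membranes largely without calcium, and S100A11 and S100A6 also bind annexins. S100A4 binds non-muscle myosin and is known from motile cells, S100A1 is best known from heart muscle, S100A13 takes part in the release of FGF1, and S100B is a classical marker of astrocytes and other glia.

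In the GRCm38 (mm10) assembly with GENCODE M21 annotation, 9 of the members lie on chromosome 3, between positions 90511034 and 93564643, a stretch of 3.05 Mb. S100b lies alone on chromosome 10, from 76253853 to 76261159 on the plus strand, where it overlaps Dip2a on the other strand. Dip2a had 2435 UMIs in all libraries, and whether strand was used in counting is not given in the sources used here. S100a1 (90511034 to 90514392, minus strand) and S100a13 (90514435 to 90524581, plus strand) point away from each other and are separated by a gap of 42 bases. S100a4 (90603771 to 90606045) and S100a6 (90612882 to 90624181) are neighbours on the plus strand, as are S100a11 (93520488 to 93526287) and S100a10 (93555080 to 93564643). S100a8 (90668978 to 90670035, plus strand) and S100a9 (90692632 to 90695721, minus strand) are also close to each other.

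Windows from 250 bases before to 50 bases after a RefSeq transcript start on GRCm38.p6 were held for 9 of the 10 members. Up to 150 bases of each, clear of annotated exons, are shown for the genes whose levels below are compared most closely, 5′ to 3′ in the direction of the gene. The first is the whole gap shared by S100a1 and S100a13, on the plus strand at chr3:90514393-90514434. The others lie on the plus strand at chr3:90603620-90603769 for S100a4, chr3:90612732-90612881 for S100a6, chr3:90668828-90668977 for S100a8 and chr3:93520338-93520487 for S100a11, and on the minus strand at chr3:90695722-90695871 for S100a9. Capitals mark the letters TATAAA in S100a4, known as a TATA box. In S100a11 they mark matches to TGANTCA, the letters read by AP-1 factors, and to the GC box letters GGGCGG.
S100a13: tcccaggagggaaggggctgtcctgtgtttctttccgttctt
S100a4: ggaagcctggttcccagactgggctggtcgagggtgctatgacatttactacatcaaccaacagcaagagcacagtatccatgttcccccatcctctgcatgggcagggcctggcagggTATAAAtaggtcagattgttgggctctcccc
S100a6: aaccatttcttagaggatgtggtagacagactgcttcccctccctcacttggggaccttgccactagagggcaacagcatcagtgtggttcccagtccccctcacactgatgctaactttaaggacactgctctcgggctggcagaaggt
S100a8: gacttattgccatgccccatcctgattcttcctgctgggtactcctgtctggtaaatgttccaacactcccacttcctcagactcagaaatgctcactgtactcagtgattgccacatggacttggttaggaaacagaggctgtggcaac
S100a9: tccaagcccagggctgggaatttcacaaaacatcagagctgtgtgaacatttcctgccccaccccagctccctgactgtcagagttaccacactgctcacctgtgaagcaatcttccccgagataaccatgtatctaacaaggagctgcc
S100a11: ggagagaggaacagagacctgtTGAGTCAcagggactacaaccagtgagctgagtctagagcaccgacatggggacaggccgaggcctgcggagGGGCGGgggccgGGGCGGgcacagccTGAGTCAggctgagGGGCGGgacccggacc

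The S100a8 stretch ends 93 bases before the RefSeq start, and the TATAAA of its window falls in the part that was not printed, as do all matches in the S100a9 window. TTGCNNAA, the letters read by C/EBP factors, was searched as well, and all motifs were read on both strands. Over 32851 windows of the same length, 13.6% held TATAAA, 7.81% TGANTCA, 10.8% TTGCNNAA and 35.7% GGGCGG. The TATA box letters occurred in the windows of S100a4, S100a8 and S100a9, and TTGCNNAA and GGGCGG in that of S100a9. A second window of S100a16, from another start, held 1 match to TGANTCA and 1 to GGGCGG. The S100a11 window held 2 matches to TGANTCA and 3 to GGGCGG, and the windows of S100a1, S100a13, S100a6 and S100b held none of the 4 motifs.

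The libraries held 15755504 to 34326349 UMIs, and 50625 of 54646 barcodes were kept as cells, with medians of 2420 to 4199.5 UMIs per cell. Cells were clustered, and clusters were given 1 of 17 names from marker genes. Cells rich in hemoglobin and clusters without a clear name were set aside. The UMI totals and shares by cell type given for the family genes leave these cells out. In every named type the summed level of its own markers was higher than in any other type. The names were given from these markers, so this cannot serve as a separate check of the names. Counted singly, 5 of 9 dendritic cell markers were highest in their own type. The counts were 6 of 8 for astrocytes, 6 of 8 for monocytes and macrophages and 7 of 8 for ependymal cells. In the remaining types all markers were highest in their own type. Scrublet called 0.0785 to 0.105% of cells doublets in the Aged libraries and 1.18 to 2.45% elsewhere. Whether it missed doublets in the Aged libraries was not tested. Libraries shared at most 1.66% of the barcodes of the smaller one. Adult 1 stood apart from the other Adult libraries: the mean squared difference between libraries, in units of counting error, was 11.1 and 11.6 in ECs against 1.29 between Adult 2 and Adult 3. Juvenile 1 and Juvenile 2 (1.06 in ECs and 1.11 in microglia) were summed as 1 replicate, as the only pair at or below 1.2 in both types. Adult 2 and 3 (1.29 in ECs and 1.04 in microglia), Juvenile 3 and 4 (1.22 and 1.16), the EAE pair (1.68 and 1.301) and the Aged pair (1.98 and 1.28) were also close and were kept apart. Nothing in the labels says that replicates came from separate pools, so the p-values measure the spread between these samples, which may be technical.

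Levels are given as CPM, the counts of a gene scaled to a total of 1000000 over the summed UMIs of a cell type in a library, and are compared between cell types for 1 gene at a time. Since the types were named from clusters of the same cells, these levels are described and not tested. In the map of median levels the members had different main sources. Neutrophils led for S100a8 and S100a9, and dendritic cells, monocytes, T cells and NK cells for S100a4. Neutrophils, monocytes, NK cells, ependyma, T cells and dendritic cells led for S100a6. For S100a11 the leading types were neutrophils, dendritic cells, monocytes, smooth muscle, fibroblast-like cells and ependyma. For S100a10 they were NK cells, T cells, fibroblast-like cells and monocytes. ECs, oligodendrocytes and astrocytes led for S100a13 and S100a16. S100a1 was highest in choroid plexus, astrocytes and fibroblast-like cells, and S100b in ependyma, fibroblast-like cells and astrocytes.

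**Figure D1:**
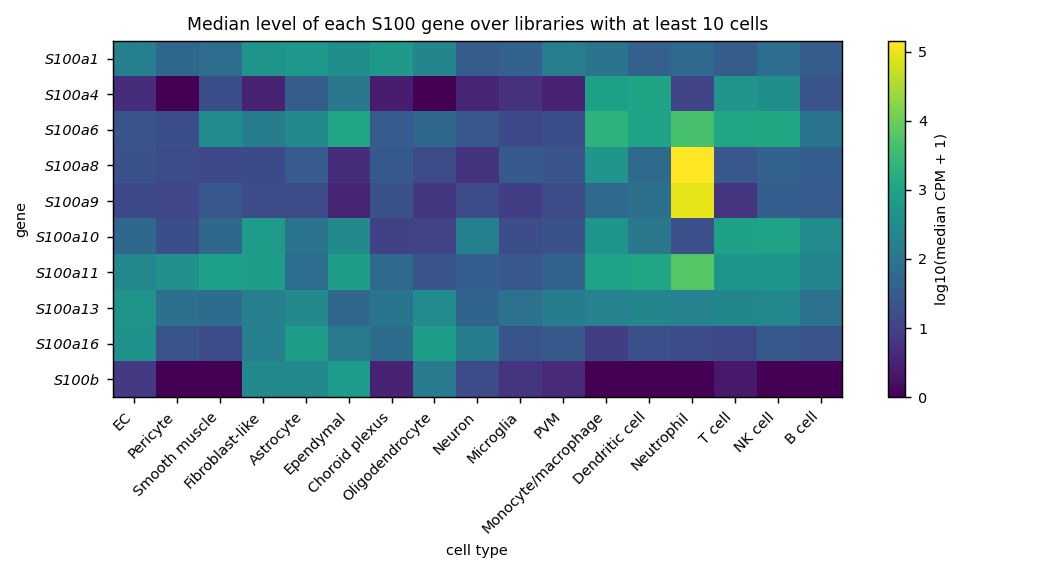
Median level over libraries of each S100 gene (rows) in each cell type (columns), as log10 of CPM + 1 on the colour scale. The brightest squares are S100a8 and S100a9 in neutrophils, with medians of 144312 and 91988 CPM.

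S100a8 and S100a9, the genes of calprotectin, were neutrophil genes here. Neutrophils, 433 of the 50625 cells, held 92.5% of the S100a8 UMIs and 92.9% of the S100a9 UMIs found in cells of a named type. In the 4 libraries with enough neutrophils the level was 160833 and 192127 CPM in Aged 1 and 2 and 100191 and 127790 CPM in EAE 1 and 2 for S100a8. The corresponding S100a9 levels were 98182, 112087, 74557 and 85794 CPM. No other type overlapped these ranges. The next types for S100a8 were monocytes and macrophages, with a median of 492 CPM (range 71.0 to 730), and dendritic cells, whose ranges overlapped.

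S100a6 was also led by neutrophils, with 2479 to 6142 CPM, followed by monocytes and macrophages with 1305 to 2920 CPM. These overlapping ranges were followed by NK cells (median 1250 CPM), ependymal cells (1154 CPM) and T cells (1117 CPM), which overlapped one another. Ependymal cells, the ciliated lining of the ventricles, had 2195 and 3567 CPM in EAE 1 and 2 against 893 to 1314 CPM in the Juvenile libraries, and the other groups had too few of them. Among cells of the vessel wall smooth muscle was highest, with a median of 320 CPM, against 21.6 CPM in ECs and 16.7 CPM in pericytes.

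S100a4 was highest in dendritic cells (1039 and 1019 CPM in EAE 1 and 2, the libraries with enough of them), monocytes and macrophages, T cells and NK cells (median 370 CPM), with overlap between neighbours, whereas B cells had a median of 19.8 CPM. Monocytes and macrophages ranged from 402 CPM in EAE 2 to 1551 CPM in Juvenile 3, which had 10 of these cells, and T cells from 38.4 CPM in Adult 1 to 1123 CPM in EAE 1. Both EAE libraries were above the 8 others in T cells (1123 and 1076 CPM against at most 718 CPM) and below the 4 others in monocytes (404 and 402 CPM against at least 827 CPM). The neutrophils, rich in S100a6, had 0 to 12.2 CPM of S100a4. In ECs, fibroblast-like cells, choroid plexus and microglia S100a4 was near the limit of detection, with medians of 1.44 to 4.46 CPM.

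S100a11 was spread over leukocytes, smooth muscle, fibroblast-like cells and ependyma, and S100a10 over lymphocytes, monocytes and fibroblast-like cells. S100a11 was highest in neutrophils (4467 to 7413 CPM, above all others), and dendritic cells, monocytes, smooth muscle, fibroblast-like cells and ependymal cells followed with overlapping ranges and medians of 1058 to 728 CPM. S100a10 had medians of 937 CPM in NK cells, 898 CPM in T cells and 693 CPM in fibroblast-like cells, also overlapping. Its medians in vessel cells were lower, at 54.4 CPM in smooth muscle, 51.7 CPM in ECs and 16.7 CPM in pericytes. Neutrophils, first for S100a11, had only 4.63 to 36.2 CPM of S100a10. The T cells of EAE 1 and 2 had 1504 and 1425 CPM of S100a10, above the 430 to 1106 CPM of the 8 other libraries.

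Most S100a13 and S100a16 transcripts in cells of a named type were in ECs, the most numerous type with 20878 cells. ECs held 68.4% of these S100a13 UMIs and 75.6% of these S100a16 UMIs, shares that also depend on how many ECs were captured. The median level of S100a13 was 469 CPM in ECs (279 to 524 CPM), followed with overlap by oligodendrocytes (307 CPM) and astrocytes (299 CPM). For S100a16, oligodendrocytes (792 CPM) and astrocytes (731 CPM) came first with overlapping ranges, and ECs followed with 426 CPM (351 to 568 CPM). The range of ECs did not overlap that of fibroblast-like cells, the next type, with 121 to 237 CPM. S100a1, which shares its 42-base gap with S100a13, had another order: choroid plexus (600 CPM), astrocytes (575 CPM) and fibroblast-like cells (476 CPM) led with overlapping ranges, and ECs had 167 CPM. Of the S100a1 UMIs in cells of a named type, 55.6% were in choroid plexus cells and 24.6% in ECs.

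S100b was not led by astrocytes in these preparations. Ependymal cells had 641 to 876 CPM, above the ranges of fibroblast-like cells (median 282 CPM) and astrocytes (median 279 CPM), which overlapped each other, and oligodendrocytes had a median of 135 CPM. The oligodendrocytes of Juvenile 1 and 2 had 645 and 659 CPM of S100b, against 58.5 to 186 CPM in the 5 Adult and Aged libraries that had enough of these cells. The same juvenile cells had 791 and 508 CPM of S100a6, against 24.5 to 93.2 CPM. Juvenile 1 and 2 held 19 and 28 oligodendrocytes and count as 1 replicate, so for both genes the juvenile level rests on 1 replicate. Only 259 oligodendrocytes were kept in all.

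Outside neutrophils, S100a8 and S100a9 were detected in every condition, least often in the Juvenile libraries and most often in the Aged and EAE ones. Named cells other than neutrophils (monocytes and dendritic cells included) were thinned to 1500 UMIs each. This left out 779 and 538 cells in Aged, 746 and 743 in EAE, 375 to 409 in Adult and 51 to 142 in Juvenile libraries. Of the cells that remained, those with an S100a8 UMI made up 2.21, 3.44 and 3.69% in Adult 1 to 3, 13.8 and 16.4% in Aged, and 12.4 and 14.1% in EAE. In Juvenile 1 to 4 they made up 0.0793, 0.0834, 0.773 and 0.309%. All Aged and EAE libraries were thus above all Adult libraries, and these above all Juvenile libraries. Without thinning the shares were 8.24 to 8.93% in Adult, 24.9 and 31.1% in Aged, 26.3 and 28.9% in EAE and 0.389 to 2.57% in Juvenile. Neutrophils numbered 2, 5 and 4 in Adult, 47 and 42 in Aged, 168 and 159 in EAE, and 0, 0, 3 and 3 in Juvenile libraries, so that EAE had more neutrophils than Aged, while the shares of both groups overlapped. For S100a9 the thinned share was 1.57 to 2.62% in Adult, 11.9 and 13.7% in Aged, 9.06 and 10.1% in EAE, and up to 0.499% in Juvenile. In Juvenile 1 it was 0 of 2522 cells, which allows up to 0.146% of cells with a UMI at the thinned depth (95% exact binomial bound, counting error only), and 0.233% of cells had one without thinning.

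The level outside neutrophils was a small fraction of the neutrophil level. The median over the 13 to 15 other cell types was 0.0598, 0.0660, 0.0737 and 0.0709% of the neutrophil level for S100a8 in Aged 1, Aged 2, EAE 1 and EAE 2. For S100a9 it was 0.0841, 0.0873, 0.0767 and 0.0884%. Single types ranged from 0.0213 to 0.0959% for S100a8 and from 0.0183 to 0.1397% for S100a9 in the Aged libraries, and up to 0.501% and 1.80% for S100a8 in EAE 1 and EAE 2. Camp and Ngp, which encode neutrophil granule proteins, were at 0.0486 to 0.0652% and 0.0467 to 0.0817%, and Retnlg at 0.103 to 0.160%. The other neutrophil markers, all less abundant in neutrophils, had other medians, with 0.635 to 3.40% for Csf3r, 0.0310 to 0.298% for Hdc, 0 to 0.531% for Il1r2, 0 to 0.0890% for Ltf, Mmp8, Mmp9 and Ly6g, and 0% for Cxcr2. Csf3r reached 108% of the neutrophil level in 1 type of Aged 1. In ECs, the summed level of 11 neutrophil markers (Csf3r among them, S100a8 and S100a9 not) was 70.1 to 73.1 CPM in EAE and 107 to 110 CPM in Aged. At that share of the neutrophil level, ECs would carry 95.7 to 123 CPM of S100a8 in EAE, where 81.4 and 88.8 CPM were measured. In ECs of Aged 1 and 2 the markers were at 0.0811 and 0.0933% of the neutrophil level, and S100a8 at 0.0597% in both. The level carried would thus exceed the measured one there as well. The part of free neutrophil RNA in the S100a8 and S100a9 values of ECs, microglia, perivascular macrophages (PVMs), pericytes and choroid plexus given below was not tested.

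**Figure D2:**
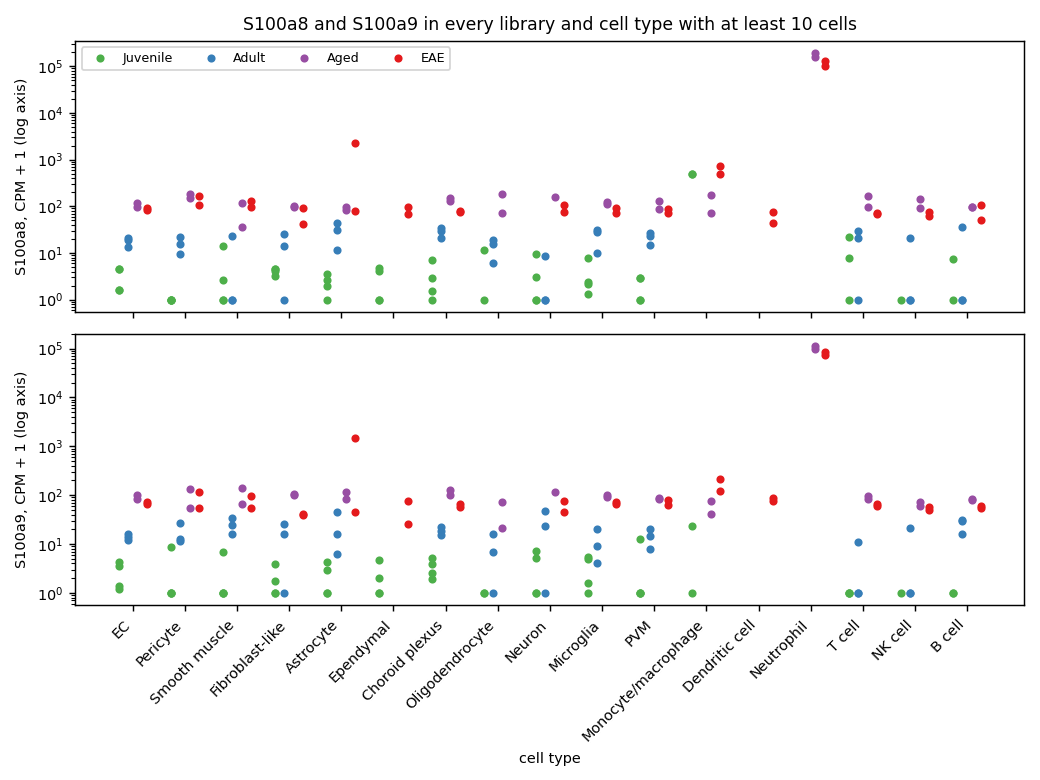
S100a8 and S100a9 in each cell type (horizontal axis), as CPM + 1 on a log axis, with 1 point per library coloured by group. Neutrophils lie at or above 74557 CPM, and in ECs, microglia, PVMs, pericytes and choroid plexus the Juvenile libraries are lowest and the Aged and EAE libraries highest for S100a8. The monocytes and macrophages do not show that order, with S100a8 at 487 and 497 CPM in Juvenile 3 and 4 (10 and 16 cells) and 71.0 and 177 CPM in Aged 1 and 2 (31 and 22 cells).

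The monocytes and macrophages of the EAE libraries, and 1 astrocyte of EAE 2, departed from that level. The monocytes and macrophages of EAE 1 and 2 had 502 and 730 CPM of S100a8, and 7 and 9 cells with at least 50 S100a8 UMIs held 51.4 and 63.4% of these UMIs. Without those cells the level was 246 and 273 CPM, with 55.6 and 65.6 CPM of S100a9. The monocytes and macrophages of Juvenile 3 and 4, libraries with 3 neutrophils each, had 487 and 497 CPM of S100a8 with 0 and 22.6 CPM of S100a9. These values rest on 16 and 22 UMIs in 10 and 16 cells, of which 30.0% and 18.8% had an S100a8 UMI. S100a8 UMIs were 4.10 and 3.35 times the S100a9 UMIs in the monocytes of EAE 1 and 2, and 1.34 to 1.71 times in neutrophils. ECs also differed from the neutrophils of their library, in the other direction. They had 1.17 and 1.16 in Aged 1 and 2 (neutrophils 1.64 and 1.71), and 1.26 and 1.24 in EAE 1 and 2 (neutrophils 1.34 and 1.49). What these ratios say of the source of the RNA was not tested. In the astrocytes of EAE 2 the level of 2303 CPM came from 1 of 38 cells, which held 95.9% of the UMIs, and was 97.2 CPM without it.

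Differences between conditions were tested with edgeR's quasi-likelihood test on summed UMIs, separately in the 8 types with enough cells, and p-values were adjusted over all genes of a type by the Benjamini-Hochberg method. The fits had 3 Adult, 3 Juvenile, 2 Aged and 2 EAE replicates, and a call is an adjusted p under 0.05. Of the 80 pairs of a member and a cell type, 65 passed the filter on low counts. In EAE 28 of these were called (22 higher and 6 lower than in Adult, 43.1%), against 23.7% of all gene and cell type pairs. In Aged 12 were called, all higher (18.5% against 3.65%), and in Juvenile 26 (6 higher and 20 lower, 40% against 33.0%). The members were chosen among genes with many reads, and the shares of all pairs were not matched to them for level. The median log2 fold change of the 65 pairs was 0.50 in EAE, 0.36 in Aged and -0.51 in Juvenile. Without S100a8 and S100a9, 19 of 51 pairs were called in EAE, 4 of 51 in Aged (7.84%) and 19 of 51 in Juvenile, so that 8 of the 12 calls in Aged were of these 2 genes. The Aged counts include S100a6 in ECs, known when the genes were chosen. Without that pair they are 11 of 64 (17.2%) and, without S100a8 and S100a9, 3 of 50 (6.00%). Where every pair of near-identical libraries was summed to 1 replicate, which left 1 Aged and 1 EAE replicate, 73 pairs passed the filter, of which 16 were called in EAE, 4 in Aged and 18 in Juvenile. Of the calls above, 10, 3 and 15 were kept.

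**Figure D3:**
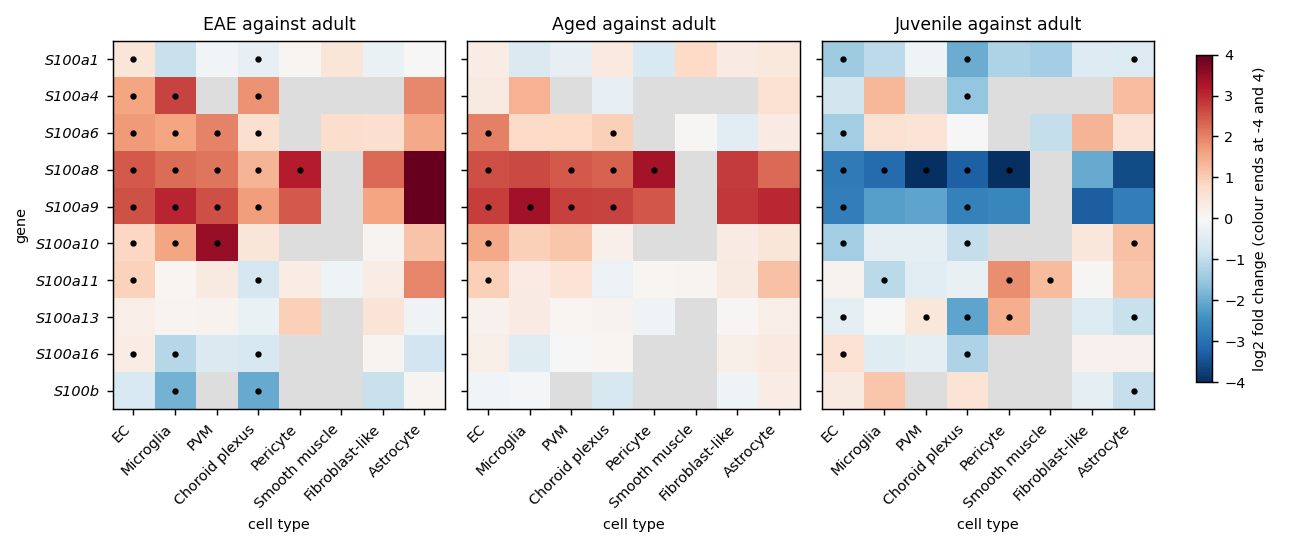
Log2 fold change against Adult of each S100 gene (rows) in each tested cell type (columns) in EAE, Aged and Juvenile libraries. Black dots mark an adjusted p under 0.05 and grey squares pairs that did not pass the filter. The rows of S100a8 and S100a9 are red in EAE and Aged and blue in Juvenile in nearly every type, with the largest other value in PVMs for S100a10 in EAE (3.48).

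ECs, which line the vessels and made up 20878 cells, had the most calls. In EAE, 8 of the 10 members were called, all higher, where 32.7% of all genes tested in ECs were called. In Aged 5 were called, all higher (all genes 10.4%), and in Juvenile 1 higher and 6 lower (all genes 47.1%). Those called in Aged ECs were S100a6, whose Aged value was known when the genes were chosen and is a description, and S100a8, S100a9, S100a10 and S100a11.

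S100a6, S100a10 and S100a11 were higher in ECs of both inflamed and aged cortex, as were S100a8 and S100a9, given further below. S100a6 was at 14.2, 21.7 and 23.4 CPM in Adult 1 to 3, 84.1 and 82.3 CPM in Aged, 55.9 and 60.4 CPM in EAE, and 6.15 to 8.42 CPM in Juvenile, with no overlap between groups. It rose in EAE (log2 fold change 1.69 ± 0.151 SE, adjusted p = 5.77e-06) and fell in Juvenile (-1.40 ± 0.172, adjusted p = 3.30e-05). The Aged value was a log2 fold change of 2.03, given as a description. At their marker levels, T cells would carry 5.85 to 7.17 CPM of S100a6 in EAE ECs, and neutrophils 2.01 to 5.93 CPM in Aged and EAE ECs.

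S100a10, the partner of annexin A2, was at 66.2, 51.7 and 51.7 CPM in Adult, 157 and 159 CPM in Aged, 88.5 and 85.2 CPM in EAE, and 15.9 to 25.5 CPM in Juvenile. Again no group overlapped another, and Aged was the highest. The change was 1.503 ± 0.145 in Aged (adjusted p = 0.000177), 0.82 ± 0.146 in EAE (adjusted p = 0.00142) and -1.41 ± 0.147 in Juvenile (adjusted p = 1.17e-05). S100a11 was at 201, 237 and 247 CPM in Adult, 444 and 445 CPM in Aged, 374 and 393 CPM in EAE, and 203 to 261 CPM in Juvenile. It rose by 0.96 ± 0.121 in Aged (adjusted p = 0.000697) and 0.93 ± 0.121 in EAE (adjusted p = 0.000122), whereas Juvenile and Adult overlapped.

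**Figure D4:**
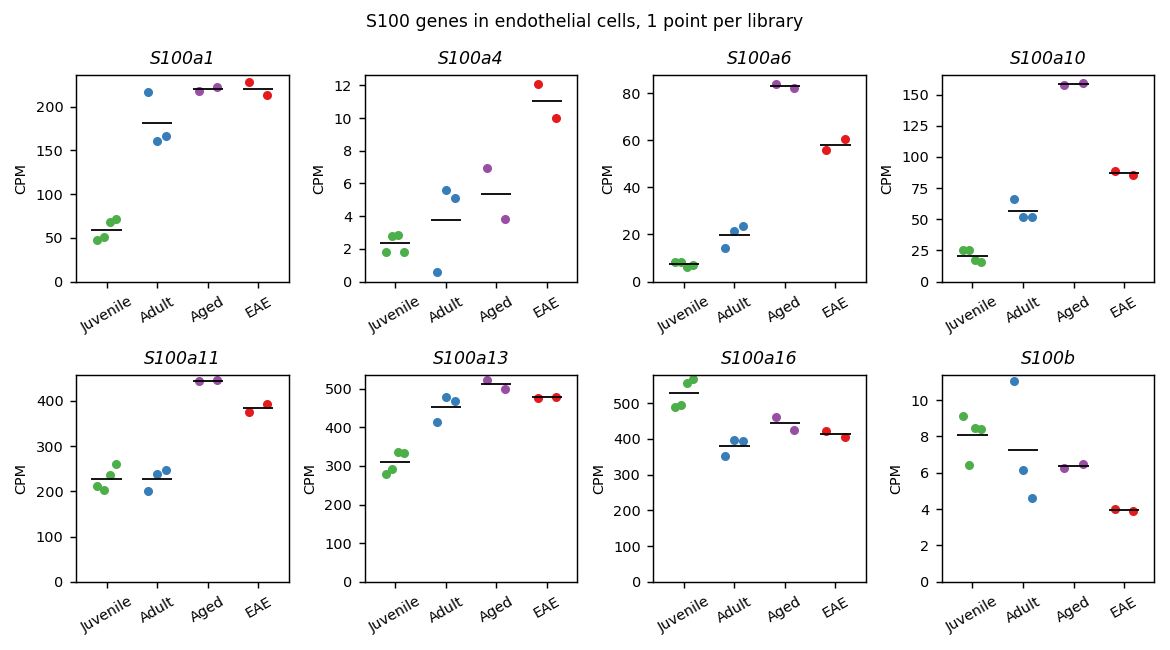
Level of each S100 gene in ECs (CPM, each panel with its own axis from 0), with 1 point per library and a bar for the mean of the libraries of a group. S100a6, S100a10 and S100a11 are higher in Aged and EAE than in Adult, and S100a1, S100a6, S100a10 and S100a13 are lower in Juvenile.

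S100a1 and S100a13 were lower in young ECs. S100a1 was at 216, 160 and 167 CPM in Adult, 218 and 223 CPM in Aged, 228 and 213 CPM in EAE and 47.0 to 71.9 CPM in Juvenile. It was lower in Juvenile (-1.42 ± 0.153, adjusted p = 2.57e-05). The choroid plexus, rich in S100a1, had its summed markers in adult ECs at 4.89 to 15.0% of its own level, against 1.07 to 2.57% in Juvenile, 1.72 to 2.45% in Aged and 2.16 to 2.28% in EAE. That share would carry 32.7 to 96.2 CPM of S100a1 in Adult ECs and 2.01 to 5.06 CPM in Juvenile ECs, and its part in the difference was not tested. S100a13 was at 413, 478 and 469 CPM in Adult and 279 to 336 CPM in Juvenile (-0.41 ± 0.0995, adjusted p = 0.00531). S100a16 had the opposite direction, with 351, 396 and 395 CPM in Adult and 490 to 568 CPM in Juvenile (0.60 ± 0.0961, adjusted p = 0.000269).

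Weaker calls in EAE ECs were those of S100a1 (0.48 ± 0.161, adjusted p = 0.0438), S100a16 (0.30 ± 0.106, adjusted p = 0.0447) and S100a4 (1.58 ± 0.464, adjusted p = 0.0262). S100a4 was at 0.581, 5.58 and 5.14 CPM in Adult, with 2 UMIs in Adult 1, and at 12.1 and 10.0 CPM in EAE. At their marker levels, T cells would carry 4.73 to 5.59 CPM of it in EAE ECs and at most 0.453 CPM in Adult ECs, and their part in the difference was not tested. Each of the S100a1 and S100a16 calls was lost in 12 of 20 alternative settings, with adjusted p up to 0.377 and 0.429. The S100a4 call was lost without EAE 1 (adjusted p = 0.147) or EAE 2 (adjusted p = 0.0884). Without Adult 1 the S100a16 change in EAE was 0.24 (adjusted p = 0.0594), and those of S100a6, S100a10 and S100a11 were 1.54, 0.92 and 0.84. S100b in ECs was at 3.90 to 11.0 CPM and was not called in any condition, although without Adult 1, which had the highest level, it was higher in Juvenile (0.70, adjusted p = 0.0106).

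With near-identical libraries summed, the EC calls that held were S100a6 (adjusted p = 0.00625) and S100a11 (adjusted p = 0.0492) in EAE, and S100a1 (0.00181), S100a10 (0.00221) and S100a6 (0.0101) in Juvenile. S100a10 then had an adjusted p of 0.112 in EAE and 0.0893 in Aged, and S100a11 one of 0.256 in Aged. Every EC call kept its sign.

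S100a8 in ECs was at 12.5, 20.02 and 18.4 CPM in Adult, 96.0 and 115 CPM in Aged, 81.4 and 88.8 CPM in EAE, and 0.602 to 3.57 CPM in Juvenile. S100a9 was at 11.3 to 14.9 CPM in Adult, 81.8 and 98.7 CPM in Aged, 64.6 and 71.6 CPM in EAE, and 0.201 to 3.29 CPM in Juvenile. Both were called in the 3 comparisons, with log2 fold changes of 2.46 and 2.53 in EAE and 2.59 and 2.76 in Aged. In microglia S100a8 was at 8.88 to 29.7 CPM in Adult, 112 and 124 CPM in Aged, 69.4 and 90.6 CPM in EAE and 0.303 to 6.70 CPM in Juvenile, and in the choroid plexus at 19.8 to 32.8, 128 and 148, 73.8 and 77.2, and 0 to 5.99 CPM. PVMs had 14.01 to 26.2 CPM in Adult, 87.6 and 129 CPM in Aged, 70.6 and 88.3 CPM in EAE and 0 to 1.94 CPM in Juvenile, and pericytes 8.48 to 20.8, 151 and 183, 108 and 166, and 0 CPM. In each of these types all Juvenile libraries were below all Adult ones for S100a8, and all Aged and EAE libraries above them. Some calls of the pair were lost when a single replicate was left out, with adjusted p from 0.0509 to 0.246. For S100a8 in the choroid plexus, the Aged call was lost without Adult 2 or 3, either Aged or EAE library or Juvenile 4 (up to 0.246 without Aged 2), and the EAE call without Adult 2 or either Aged or EAE library (up to 0.147 without EAE 2). For S100a8 in microglia, the EAE call was lost without Adult 1 or either EAE library (up to 0.107 without EAE 2), and the Juvenile call without Adult 2 or 3, either Aged or EAE library, Juvenile 1 and 2 together, or Juvenile 4 (up to 0.1003 without Adult 3). For S100a9, the Aged call was lost in microglia without Adult 1 or 3 or either Aged or EAE library (up to 0.173 without Aged 1), and in PVMs without Adult 3 or either Aged library (up to 0.174 without Aged 1). Other settings also cost calls. In microglia, the Juvenile call of S100a8 and the Aged call of S100a9 were lost at resolution 0.5 and with near-identical libraries summed. The Juvenile call of S100a8 was also lost with no filter on low counts, and its log2 fold change ranged from -4.41 to -0.902 over the settings.

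Along the vascular tree, S100a6, S100a4, S100a11 and S100a10 were not evenly spread over ECs. Of the 20878 ECs, 9617 fell in clusters named from markers as arterial (765), capillary (7071) or venous (1781), clustered within each condition without the members, and the values below are described without a test. S100a6 in arterial ECs was at 168, 195 and 216 CPM in Adult, 583 and 467 CPM in Aged, 468 and 375 CPM in EAE, and 9.37 to 40.2 CPM in Juvenile. In capillary ECs it was at 6.83 to 9.10 CPM in Adult, 11.7 and 29.9 CPM in Aged, 31.1 and 30.7 CPM in EAE, and 1.499 to 8.29 CPM in Juvenile. Arterial exceeded capillary ECs in 11 of 11 libraries, with a median ratio of 15.6. Within both subtypes the EAE and Aged libraries were above the Adult ones. Venous ECs had at most 41.6 CPM, reached in EAE 2.

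S100a11 in arterial ECs ranged from 630 to 1114 CPM (median 847), against 123 to 308 CPM in capillary (median 197) and 146 to 460 CPM in venous ECs. The arterial level was above the capillary one in 11 of 11 libraries, with a median ratio of 3.92. S100a4 was found mainly in arterial ECs, with 0 to 84.2 CPM against 0 to 14.3 CPM in capillary ECs, and was higher there in 10 of 11 libraries. In Adult 1, which had 13 arterial ECs, it was at 0 in both. In capillary ECs S100a4 was highest in EAE 1 and 2 (14.3 and 10.8 CPM, with at most 2.79 CPM in the other 9 libraries). S100a10 differed from these in that it was high at both ends of the tree: arterial and venous ECs were each above capillary ECs in 11 of 11 libraries, with median ratios of 7.46 and 5.25. S100a1 was lower in arterial than in venous ECs in 9 of 11 libraries (median ratio 0.74). S100a13 was higher in arterial than in venous ECs in 10 of 11 (median ratio 1.13) and higher in venous than in capillary ECs in 1 of 11. For S100a16, S100a8 and S100a9 the median ratios between subtypes were 0.71 to 1.19, with the first subtype of a pair above the second in 3 to 7 of 11 libraries.

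**Figure D5:**
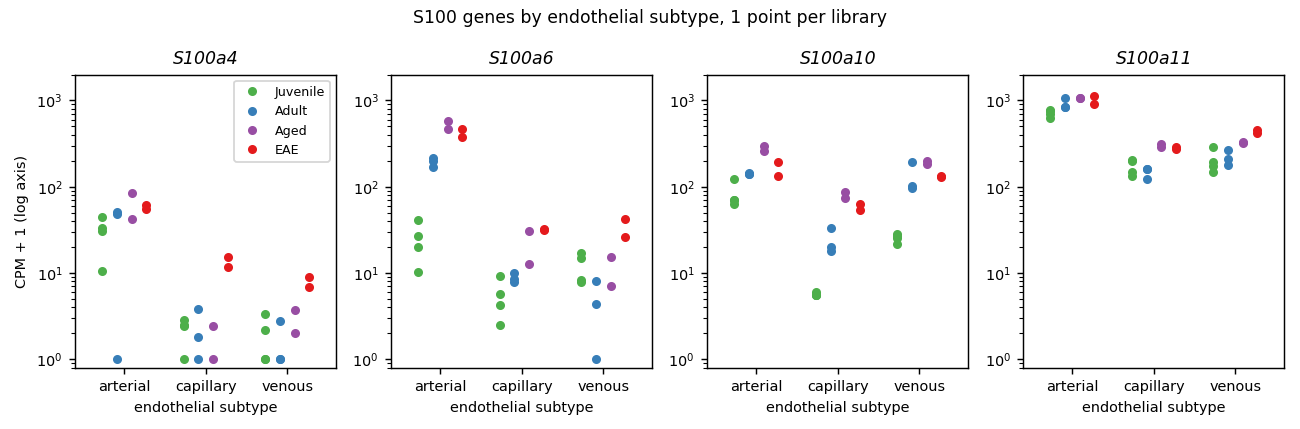
S100a4, S100a6, S100a10 and S100a11 in arterial, capillary and venous ECs, as CPM + 1 on a log axis, 1 point per library coloured by group. S100a6 and S100a11 are highest in arterial ECs in nearly every library, whereas S100a10 is high in both arterial and venous ECs.

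The arterial share of all ECs was 1.56 to 5.98% in Adult, 3.06 and 3.46% in Aged, 1.49 and 1.74% in EAE and 5.18 to 11.1% in Juvenile. The venous share was 1.2005 to 4.81% in Adult, 8.33 and 8.84% in Aged, 11.2 and 10.7% in EAE and 6.05 to 17.4% in Juvenile. It was thus higher in Aged and EAE than in Adult, as was S100a10 in ECs, and its part in that difference was not tested. Within capillary ECs S100a10 was at 31.8, 18.7 and 16.9 CPM in Adult, 73.4 and 85.2 CPM in Aged and 62.2 and 53.2 CPM in EAE, and within venous ECs at 195, 99.7 and 96.7 CPM, 199 and 181 CPM, and 133 and 128 CPM. Adult 1 had 10 venous ECs, and its value lies among those of Aged and above those of EAE. Smooth muscle, which wraps arteries and expresses both genes, had its markers in arterial ECs at 0.412 to 0.857% of its own level. That share would carry 3.64 to 14.3 CPM of S100a11 and 0.311 to 3.42 CPM of S100a6 into arterial ECs, where 630 to 1114 CPM and 9.37 to 583 CPM were measured.

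Microglia, the resident macrophages of the parenchyma, had 7 calls in EAE (5 higher and 2 lower, all genes 27.0%), 1 in Aged (all genes 2.59%) and 2 in Juvenile (all genes 23.8%). S100a10 was at 16.1, 15.7 and 9.12 CPM in Adult and 34.2 and 39.9 CPM in EAE (1.58 ± 0.243, adjusted p = 0.000105). S100a6 was at 12.1, 3.498 and 6.08 CPM in Adult and 19.6 and 24.5 CPM in EAE (1.58 ± 0.342, adjusted p = 0.00226). S100a4 was at 0.807 to 3.498 CPM in Adult, from 1 or 2 UMIs a library, and at 9.31 and 9.97 CPM in EAE (2.71 ± 0.551, adjusted p = 0.00139). For each of these genes the EAE libraries lay above all Adult ones. At their marker levels, T cells would carry 5.51 and 5.71 CPM of the S100a4 and 7.30 to 7.64 CPM of the S100a10 in EAE microglia. Monocytes and macrophages, 697 and 630 cells in EAE 1 and 2, had 404 and 402 CPM of S100a4. Over all their libraries they had 1305 to 2920 CPM of S100a6 and 487 to 734 CPM of S100a10. What monocytes and macrophages would carry into EAE microglia or other EAE types is not given here, and their part was not tested.

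The members that fell in EAE microglia were S100a16, from 33.1, 21.0 and 31.9 to 13.3 and 10.4 CPM (-1.14 ± 0.244, adjusted p = 0.00204), and S100b, from 3.04 to 5.65 CPM in Adult to 0.698 and 1.52 CPM (-1.89 ± 0.571, adjusted p = 0.0206). S100a16 had its main source in ECs, whose markers in microglia would carry 18.3 to 20.7 CPM of it in Adult and 8.45 to 9.81 CPM in EAE, and their part in the fall was not tested. The S100b call was lost without Adult 1 (adjusted p = 0.157) or EAE 1 (adjusted p = 0.134). With a coarser clustering, at resolution 0.5, the calls of S100a10, S100a4, S100a16, S100a8 and S100b in EAE microglia were lost, with log2 fold changes of 0.58 for S100a10 and 1.04 for S100a4. With near-identical libraries summed, 5 of the 7 were lost, those of S100a6 (adjusted p = 0.0668), S100a16 (0.0673), S100a9 (0.0931), S100b (0.120) and S100a8 (0.148). In Juvenile microglia S100a11 was lower, at 7.99 to 16.04 CPM against 24.3 to 29.7 CPM in Adult (-1.09 ± 0.258, adjusted p = 0.00479). This call was lost at resolution 0.5 (-0.77, adjusted p = 0.186) and with near-identical libraries summed (-1.001, adjusted p = 0.0589).

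PVMs, macrophages that sit along vessels, had the largest called EAE change of the family. S100a10 was at 17.5, 14.7 and 12.3 CPM in Adult, 30.2 and 33.8 CPM in Aged, 5.83 to 18.3 CPM in Juvenile, and 148 and 158 CPM in EAE. It rose in EAE by 3.48 ± 0.238 (adjusted p = 2.34e-10), and the call held in all 20 alternative settings. T cells, also rich in S100a10, would carry 26.3 to 32.6 CPM of it in EAE PVMs at their marker level and 8.29 to 18.5 CPM in Adult PVMs. The upper Adult figure lies above every level measured in Adult PVMs, so such a figure is not a measured part. S100a6 rose from 8.17, 3.28 and 24.6 to 46.5 and 38.5 CPM (1.98 ± 0.468, adjusted p = 0.00796), and the call was lost without EAE 1. By the same estimate T cells would carry 25.2 to 30.4 CPM of S100a6 in EAE PVMs, and their part was not tested. In all, 4 of 8 tested members were called in EAE (all genes 19.3%), 2 in Aged (2.36%) and 2 in Juvenile (10.0%). S100a13 was higher in Juvenile PVMs, with 208 to 216 CPM against 131, 149 and 152 CPM in Adult (0.46 ± 0.130, adjusted p = 0.0265), but not without Adult 1 (adjusted p = 0.0815), Juvenile 3 (0.0574) or Juvenile 4 (0.0576).

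In the choroid plexus, the epithelium that makes cerebrospinal fluid, 8 members were called in EAE (4 higher and 4 lower, all genes 38.2%), 3 in Aged (2.28%) and 7 in Juvenile, all lower (60.6%). S100a1 was at 639, 670 and 703 CPM in Adult, 919 and 876 CPM in Aged, 575 and 600 CPM in EAE, and 162 to 197 CPM in Juvenile. It was lower in Juvenile (-1.996 ± 0.101, adjusted p = 4.40e-11), and so was S100a13 (-2.12 ± 0.121, adjusted p = 1.96e-10), with 23.2 to 32.7 CPM against 99.4 to 111 CPM. Both calls, 2 of the 7 lower ones in this type, held in all 20 alternative settings. S100a16 was lower in both Juvenile (33.8 to 45.1 CPM, -1.25 ± 0.0995, adjusted p = 1.29e-08) and EAE (64.8 and 59.2 CPM, -0.65 ± 0.110, adjusted p = 0.000194) than in Adult (85.5 to 91.5 CPM). The Juvenile call was lost at resolution 0.5 (-0.42, adjusted p = 0.0519) and the EAE call with near-identical libraries summed (adjusted p = 0.0897). S100a10 was at 4.55 to 9.58 CPM in Juvenile and 15.2, 7.55 and 9.09 CPM in Adult, ranges that overlap (-0.96 ± 0.244, adjusted p = 0.00286), and its call was also lost at resolution 0.5 (-0.59, adjusted p = 0.372).

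S100a6 in the choroid plexus rose from 31.0, 21.9 and 26.0 CPM in Adult to 45.1 and 46.5 CPM in EAE (0.66 ± 0.128, adjusted p = 0.000721) and 46.0 and 58.5 CPM in Aged (0.95 ± 0.135, adjusted p = 0.000567). The Aged call was lost without Aged 2 (0.80, adjusted p = 0.0581), and with near-identical libraries summed both were lost (adjusted p = 0.0569 in EAE and 0.111 in Aged). S100a11, in contrast, was lower in EAE, at 48.5 and 44.5 CPM, than in Adult, at 50.6, 72.8 and 78.6 CPM (-0.66 ± 0.178, adjusted p = 0.00955), and this call was lost without EAE 2 (adjusted p = 0.0921). S100a4 was at 8.21 and 9.21 CPM in EAE and 1.12 to 4.64 CPM in Adult (1.81 ± 0.428, adjusted p = 0.00332), and T cells would carry 3.88 to 4.89 CPM of it in EAE. The EAE calls of S100a1 (-0.33 ± 0.109, adjusted p = 0.0230) and S100b (-2.01 ± 0.570, adjusted p = 0.0101) were each lost without EAE 1 (adjusted p = 0.179 and 0.0551) or EAE 2 (0.111 and 0.102). The S100b change was -1.10 without Adult 1 (adjusted p = 0.119), and the S100a1 call was also lost without Adult 2 (0.0648) or Adult 3 (0.0741).

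Apart from S100a8, the calls in mural cells were all in the young cortex. In pericytes, the contractile cells of capillaries, S100a11 was at 259, 238 and 405 CPM in Adult, 294 and 367 CPM in Aged, 419 and 321 CPM in EAE, and 1164, 1306, 1052 and 1229 CPM in Juvenile. The 4 Juvenile libraries were far above all others (1.85 ± 0.1795, adjusted p = 5.07e-12). S100a13 was at 52.4, 42.4 and 72.7 CPM in Adult and 168, 166, 135 and 203 CPM in Juvenile pericytes (1.44 ± 0.309, adjusted p = 0.000196), and both calls held in all 20 alternative settings. In smooth muscle S100a11 was at 763, 709 and 821 CPM in Adult and 1806, 1631, 2147 and 2166 CPM in Juvenile (1.26 ± 0.212, adjusted p = 0.000548), a call that was lost with near-identical libraries summed (adjusted p = 0.117). Pericytes had 1 call of 5 tested members in EAE (all genes 5.38%), 1 in Aged (0.951%) and 3 in Juvenile (36.9%), and the remaining calls were of S100a8, with 0 UMIs in the Juvenile libraries. The EAE call of S100a8 was lost without EAE 2 (adjusted p = 0.0991) and the Juvenile call without Juvenile 1 and 2 (adjusted p = 0.0517). Smooth muscle had 1 call of 3 in Juvenile (all genes 19.1%) and 0 in EAE (0.321%) and Aged (0.00%), where edgeR gave 0 members with an unadjusted p under 0.05 and DESeq2 called 0.

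Fibroblast-like cells, which include cells of the leptomeninges and perivascular space, had none of 9 tested members called in EAE (all genes 4.49%), Aged (0.0365%) or Juvenile (4.63%). There, edgeR gave 1, 2 and 1 members with an unadjusted p under 0.05, and DESeq2 called 0, 0 and 1. Their S100a6 level varied widely within groups, from 30.3 to 443 CPM between EAE 1 and 2 and from 109 to 1114 CPM among the Juvenile libraries.

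Astrocytes had 4 of 10 members called in Juvenile (all genes 9.20%) and 0 in EAE (2.05%) and Aged (0.0399%), where edgeR gave 6 and 1 members with an unadjusted p under 0.05 and DESeq2 called 2 and 0. S100b, the astrocyte marker, was at 279, 434 and 265 CPM in Adult and 142, 183, 183 and 195 CPM in Juvenile (-0.91 ± 0.195, adjusted p = 0.00318), and the call held in all 20 alternative settings. S100a13 was lower as well (-0.88 ± 0.208, adjusted p = 0.00703), but not without Adult 2 (-0.62, adjusted p = 0.0573). S100a1 was lower (-0.56 ± 0.166, adjusted p = 0.0327) and S100a10 higher (1.18 ± 0.330, adjusted p = 0.0242), with 102 to 200 CPM against 43.4 to 64.5 CPM. The S100a1 call was lost in 11 of 20 settings and the S100a10 call in 7, both among them without Adult 1 (adjusted p = 0.218 and 0.217), without Adult 2 (0.0614 and 0.0865) and without Juvenile 4 (0.0865 and 0.0766). Adult 2 and 3 held 23 and 22 astrocytes.

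Partners and receptors of S100 proteins were read from lists of 12 and 6 genes. Over all tested pairs of gene and type, 9 of 71 partner pairs were higher and 7 lower in EAE (22.5% called, all genes 23.7%), 5 higher and 0 lower in Aged (7.04%, all genes 3.65%), and 15 higher and 13 lower in Juvenile (39.4%, all genes 33.0%). The share in EAE was thus near that of all genes. Anxa2, which encodes the annexin bound by S100A10, was higher in ECs of EAE (0.85 ± 0.0914, adjusted p = 2.76e-05) and Aged (1.08 ± 0.0914, adjusted p = 7.26e-05). It was also higher in Juvenile pericytes (2.11 ± 0.217, adjusted p = 2.66e-11) and smooth muscle (1.36, adjusted p = 0.0354), the cells in which S100a11 rose, and in Juvenile ECs (0.59), where S100a10 fell. Anxa2 was higher as well in EAE pericytes (1.05, adjusted p = 0.0291) and Aged microglia (1.19, adjusted p = 0.0348), where S100a11 was not called. Ahnak, a large scaffold protein bound by the S100A10 and annexin A2 complex, was higher in EAE ECs (1.24, adjusted p = 6.90e-07) and EAE PVMs (1.02, adjusted p = 0.00121), and lower in Juvenile ECs (-1.09, adjusted p = 4.93e-07). In Juvenile it was also lower in microglia (-1.28, adjusted p = 0.00511), but higher in pericytes (1.13, adjusted p = 0.00949) and PVMs (0.66, adjusted p = 0.0446). Anxa6, another annexin, was lower in EAE ECs (-0.76, adjusted p = 0.000151) and higher in Aged (0.44, adjusted p = 0.01596) and Juvenile ECs (1.03, adjusted p = 1.59e-06). Myh9, a non-muscle myosin bound by S100A4, was higher in EAE ECs (0.89, adjusted p = 8.20e-05), and Fgf1, released with S100A13, was lower in Juvenile smooth muscle (-1.75, adjusted p = 0.00701).

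Of the receptor pairs, 2 of 26 were higher and 9 lower in EAE (42.3% called, all genes 23.7%), 1 higher and 1 lower in Aged (7.69%, all genes 3.65%), and 1 higher and 8 lower in Juvenile (34.6%, all genes 33.0%). Bsg (basigin), a receptor of S100A9, was lower in EAE microglia (-1.03, adjusted p = 2.43e-05), PVMs (-0.90, adjusted p = 0.0319), pericytes (-0.84, adjusted p = 0.000571), choroid plexus (-0.75, adjusted p = 7.57e-05) and fibroblast-like cells (-1.23, adjusted p = 0.0417), and was not called in ECs, smooth muscle or astrocytes. In Juvenile, Bsg was lower as well in microglia (-1.05), PVMs (-0.93), pericytes (-1.23), choroid plexus (-0.97), smooth muscle (-1.10) and astrocytes (-1.07), all called. The fall against Adult was thus not particular to EAE. Adult choroid plexus had a mean normalized level of 6639 CPM of Bsg, and the part of its free RNA in the other types was not tested. Cd36, a scavenger receptor, was higher in EAE microglia (3.73, adjusted p = 2.49e-05) and lower in EAE PVMs (-1.75, adjusted p = 8.91e-07) and Aged PVMs (-1.64, adjusted p = 4.58e-05). None of the 7 other S100 genes passed the filter on low counts in any tested type. The clearest source among them was S100a5 in neurons (151 of 158 UMIs in cells of a named type).

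Across 150 units of a cell type in a library and 12398 genes, the genes most like each member by Pearson's r of log2 CPM + 1 followed the sources above, where the units share libraries, depth and free RNA. For S100a8 and S100a9 these were Retnlg (r = 0.84 and 0.86) and Camp (0.80 and 0.82), both known from neutrophils. For S100a11 they were Anxa2 (0.82), Anxa1 (0.81) and Tagln2 (0.76), and for S100b Pamr1 (0.79), Epdr1 (0.78) and the astrocyte connexin gene Gja1 (0.76). S100a4 was most like Itgb7 (0.76), S100a6 like Cd44 (0.67), S100a1 like Clu (0.73), S100a16 like Mpzl1 (0.76) and S100a10 like the ribosomal protein gene Rpl11 (0.66), whereas S100a13 had the weakest match (Gltp, 0.57). Among members, r was 0.86 for S100a8 with S100a9, 0.71 for S100a4 with S100a6 and 0.24 for S100a1 with S100a13.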

How the data were processed

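Single cells of 11 cortex libraries were captured on the 10x 3′ v2 system. The authors deposited whole-number counts listed by gene and cell barcode, 1 for each UMI. Per the labels these were made with bcl2fastq 2.19.1.403, UMI-tools 0.5.3, STAR 2.5.3a and featureCounts 1.6.1 on mm10. Whether counting used strand is not given in the sources used here. Cells with 500 to 6000 genes and at most 25% mitochondrial UMIs were kept, normalized to 10000, reduced to 2000 variable genes and 12 principal components, and clustered with the Leiden method at resolution 1 (Python 3.11.15, scanpy 1.11.5, leidenalg 0.10.2). Clusters were named from fixed marker lists, with score limits set after the clusters were seen. No doublet calls were used, except in an alternative.

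UMIs were summed per library and cell type (at least 10 cells) and tested with edgeR 4.0.16 in R 4.3.3 (TMM factors, filterByExpr, robust quasi-likelihood, all groups in 1 fit per type, Benjamini-Hochberg adjustment over all genes of the type). The script was tested on simulated data. Libraries of a group whose mean squared difference was at most 1.2 in both ECs and microglia were summed, and totals of 15755504 to 34326349 UMIs per library set the precision. CPM levels are descriptions. A level that another type would carry is the share of that type's summed markers found in a cell type, times that type's own level of the gene. It is not a measured part and can exceed the measured level. The shares of cells and their intervals cover counting error only.

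The members, the gene lists and the tests were chosen with earlier results of these data known. All members were counted in every comparison, with values mainly for those called. Of the partner and receptor lists, called genes with the largest absolute log2 fold change were eligible, at most 4 per type and comparison, and not all of them are printed. The 3 genes most like each member by r were listed. Alternatives were DESeq2 1.42.0, other factors, filters and cell minimums, other ways of summing libraries, a replicate block, leaving out each replicate, removing doublets and a coarser clustering. The summing of every near-identical pair was added after the likeness of the libraries was seen. Same-numbered libraries did not deviate together (correlations from -0.22 to 0.13 over 13 pairs in ECs), so the numbers were not used as pairs.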

Additional observations from a re-analysis of the deposited data

Results flagged for a closer look

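In 2 of 46 groups of 4 libraries 1 library lay far from the others, where chance gives about 1 in 20. S100a4 in Juvenile smooth muscle was at 1.81, 3.37, 0 and 64.1 CPM, and the gap of Juvenile 4 to its neighbour was 0.95 of the whole range. It rests on 5 UMIs. S100a11 in the Juvenile choroid plexus was at 60.5, 68.1, 61.3 and 60.9 CPM, and the gap of Juvenile 2 was 0.90 of a narrow range.

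Some members moved in opposite directions in different cell types, each type against its own Adult libraries. The differences between the types were not tested. In EAE, the log2 fold change in ECs minus that in the choroid plexus was 0.81 for S100a1 and 1.60 for S100a11, and that in ECs minus that in microglia was 1.45 for S100a16. In Juvenile, the log2 fold change in astrocytes minus that in ECs was 2.59 for S100a10. The change in pericytes minus that in microglia was 2.94 for S100a11, and that in pericytes minus that in the choroid plexus was 3.56 for S100a13. For S100a16 the change in Juvenile ECs minus that in the choroid plexus was 1.85. Of these, the calls of S100a1 and S100a16 in EAE ECs, of S100a1 and S100a11 in EAE choroid plexus and of S100a10 in Juvenile astrocytes were lost when some single libraries were left out.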

How the results depend on the processing

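Of 66 calls, 18 held in all 20 alternative settings, and S100a8 in Aged pericytes held in the 19 that gave it a value. Summing every near-identical pair of libraries moved the EAE and Aged calls most, from 28 to 16 in EAE, from 12 to 4 in Aged and from 26 to 18 in Juvenile, with 73 in place of 65 pairs tested. Of the original calls 10, 3 and 15 were kept. This summing leaves 1 EAE and 1 Aged replicate, which are assumed to vary like the other groups. With no filter on low counts (80 pairs tested) there were 32, 14 and 35 calls, by number the largest move in Juvenile. Leaving out 1 replicate at a time gave 19 to 30 calls in EAE, 8 to 13 in Aged and 21 to 29 in Juvenile, lowest without EAE 2 and Aged 2 in the first and second. The replicate block gave 29, 14 and 25 calls, DESeq2 27, 10 and 27, and resolution 0.5 22, 12 and 24. A call reversed once: S100a4 in the Juvenile choroid plexus was at -1.55 and at 0.33 with resolution 0.5. That call was also lost without Adult 2 (-0.70, adjusted p = 0.225) or Juvenile 4 (adjusted p = 0.0608). Over the Aged and EAE libraries and both genes, the median share of cells outside neutrophils with an S100a8 or S100a9 UMI was 13.1% and, without thinning, 25.6%.

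The low counts of S100a4 and S100b in microglia and choroid plexus and the few mural cells and astrocytes limit precision, as do the 2 libraries each of Aged and EAE.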
